A study of Mus musculus with 27 samples.

Results

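The NF-κB inhibitors and feedback regulators described here are 9 genes: Nfkbia, Nfkbib, Nfkbie, Nfkbiz, Nfkbid, Bcl3, Tnfaip3, Tnip1 and Cyld. They were taken by name as the IκB family and the ubiquitin-editing regulators of the pathway. All 9 were found among the 25192 gene symbols of the deposited count table.

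NF-κB is a family of dimeric transcription factors that wait in the cytoplasm of resting cells, held there by IκB proteins. A signal such as a bacterial product or tumour necrosis factor leads the IKK kinases to phosphorylate IκB, which is then destroyed, and NF-κB enters the nucleus and switches on inflammatory genes. Several of the genes it switches on encode its own inhibitors, which makes their transcripts early readouts of the pathway in macrophages and in cells of the vessel wall.

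The study measured RNA by bulk sequencing in 3 kinds of cultured mouse cells: macrophages grown from bone marrow (BMDMs), fibroblasts from embryos (MEFs) and cells labelled MAECs, taken as aortic endothelial. The cells were unstimulated (0 h) or received imidazole propionate (ImP), a microbial metabolite of histidine studied here in atherosclerosis, at 10 µg/mL for 1 or 2 h. The groups held 3 libraries each, 27 in all. No genotype, strain, sex or age is given for the cells and no time-matched vehicle group is among the 9 groups, so ImP and time in culture cannot be told apart. The labels do not say that the libraries of a group came from separate cultures or animals, so p-values reflect the spread between these libraries alone, which may be technical. Macrophages and fibroblasts were processed with a directional library kit and the MAECs with a kit for low input after plating in smaller wells, so kit and cell type cannot be told apart for the last.

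Total counts per library were 28.8 to 35.6 M in macrophages, 30.6 to 36.5 M in fibroblasts and 19 to 61 M in the cells labelled aortic endothelial. In the macrophages, the third library labelled 1 h resembled the unstimulated ones for most of the genes described here, and the third library labelled 2 h resembled the first and second libraries labelled 1 h. Library codes followed the order of the times in 8 of 9 runs of 3, and the exception was the run that holds these 2 libraries, where the library labelled 2 h has the lower code. Macrophage comparisons between times are therefore given as labelled and again without these 2 libraries. They were left out because of their values, for genes of this pathway among others, so p-values without them are smaller than a test planned in advance would give. Calls without them follow in part from this choice and are not a separate test of these genes. The macrophage libraries held each of 12 macrophage markers at a mean of 10 CPM (counts per 1 M counts) or more. In the cells labelled aortic endothelial, 7 of 13 endothelial markers had a mean under 1 CPM, among them Cdh5 (0.568 CPM), Kdr (0.215 CPM) and Cldn5 (at 0). Eng was the 1 marker of the 13 above 10 CPM, at 105 CPM against 64.6 CPM in macrophages and 2.12 CPM in fibroblasts, followed by Flt1 (7.49 CPM) and Egfl7 (5.69 CPM). The summed endothelial level at 0 h was 96.6 to 135 CPM there, mostly Eng, and 105 to 118 CPM in the fibroblasts, mostly Flt1 (102 CPM). Fibroblast markers reached a mean of 10 CPM in the same cells for 9 of 11 genes. Among 8 smooth muscle genes 5 did so, with Acta2 at 799 CPM and Tagln at 280 CPM. The summed smooth muscle level at 0 h was 1190 to 1410 CPM, against 244 to 257 CPM in the fibroblasts, mostly Smtn there (mean 244 CPM). In the embryonic fibroblasts themselves, 6 of the 11 fibroblast markers reached a mean of 10 CPM. The 3 under 1 CPM were Thy1 (0.681 CPM), Fap (0.0267 CPM) and Lum (0.00937 CPM).

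NF-κB binds DNA at short elements called κB sites. The search used 1 consensus for them, the 10-base pattern GGGRNWYYCC (R is A or G, W is A or T, Y is C or T, N is any base). Stretches that depart from this pattern are not marked. Both strands of the RefSeq promoter windows (mouse build GRCm38.p6; 300 bases, 250 before and 50 after each start) were searched for it and overlapping matches were merged. A match was found in 4.51% of all 32851 windows and for 5.14% of the 27025 genes with a window. Of the 9 genes described here 8 were in the promoter table, and 7 of these had a match in at least 1 window. The matches are shown because the genes are known as feedback targets. Each is printed on the coding strand of its gene, with 30 bases of context in all and the matched bases in capitals.
Nfkbia (chr12:55492657-55492686, minus strand): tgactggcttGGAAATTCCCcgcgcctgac
Nfkbie (chr17:45555584-45555613, plus strand): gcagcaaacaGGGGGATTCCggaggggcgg
Nfkbid (chr7:30422170-30422199, plus strand): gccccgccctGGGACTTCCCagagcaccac
Nfkbid (chr7:30422215-30422244, plus strand): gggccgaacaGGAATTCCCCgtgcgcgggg
Bcl3 (chr7:19822734-19822763, minus strand): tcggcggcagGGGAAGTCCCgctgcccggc
Tnfaip3 (chr10:19015516-19015545, minus strand): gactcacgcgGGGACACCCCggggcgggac
Tnfaip3 (chr10:19015403-19015432, minus strand): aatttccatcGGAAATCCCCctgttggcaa
Tnip1 (chr11:54962978-54963007, minus strand): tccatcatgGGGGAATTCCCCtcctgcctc
Cyld (chr8:88696863-88696892, plus strand): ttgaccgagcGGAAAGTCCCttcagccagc

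The Tnip1 stretch merged 4 overlapping matches over both strands. The Nfkbid matches lie in the second of its 3 windows, at a start downstream of the first. The Nfkbib window held no match, and Nfkbiz was not in the table. A match is a stretch of letters and not a measured binding site. The 250 bases before the Nfkbia start are shown whole because this gene encodes the classical inhibitor and its transcript was the most abundant of the 9 per kb of exon in each unstimulated cell type.
Nfkbia (chr12:55492648-55492897, minus strand): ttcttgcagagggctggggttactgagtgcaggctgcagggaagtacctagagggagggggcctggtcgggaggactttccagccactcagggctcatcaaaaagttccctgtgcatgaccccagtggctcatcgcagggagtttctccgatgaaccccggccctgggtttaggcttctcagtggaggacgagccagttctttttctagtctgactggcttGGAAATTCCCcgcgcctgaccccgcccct

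In macrophages the first and second libraries labelled 1 h held several times the unstimulated level of Nfkbia, Nfkbiz and Tnfaip3, with smaller increments of Nfkbie, Nfkbid and Bcl3, and the third library labelled 2 h held the same set high. Levels below are CPM scaled within a cell type by TMM, edgeR's trimmed-mean scaling, and are given in the order of the libraries. In bulk RNA, fewer cells carrying a transcript and less transcript per cell cannot be told apart.

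The classical inhibitors come first. Nfkbia encodes IκBα, which retains NF-κB in the cytoplasm and strips it from DNA after a signal (chr12:55489410-55492647, minus strand, GRCm38). Its level was 39.9, 36.2 and 36.7 CPM at 0 h, 224, 215 and 40.9 CPM in the libraries labelled 1 h, and 45.0, 36.8 and 232 CPM in those labelled 2 h. Thus 2 libraries labelled 1 h and 1 labelled 2 h were high, and the other 6 lay between 36.2 and 45.0 CPM. Nfkbie, which encodes IκBε, had 11.3, 13.7 and 12.2 CPM at 0 h, 25.6, 25 and 12.5 CPM at 1 h, then 10.7, 11 and 28.2 CPM at 2 h. The same 3 libraries were high, and both ImP groups overlapped with 0 h. Nfkbib, which encodes IκBβ, ranged from 15.6 to 19.8 CPM at 0 h, from 17 to 21.7 CPM at 1 h and from 16.7 to 24.8 CPM at 2 h, with overlap at every time. The Nfkbib locus overlaps Ccer2 and Sirt2 on the opposite strand, and whether counting used strand is not stated, so its level is less certain.

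The nuclear IκB proteins act on chromatin rather than in the cytoplasm. Nfkbiz encodes IκBζ, a cofactor for secondary inflammatory genes such as Il6. Its level was 5.55, 6.09 and 5.82 CPM at 0 h, 132, 131 and 7.23 CPM at 1 h, then 6.43, 8.10 and 137 CPM at 2 h. All 6 libraries labelled ImP exceeded the 3 unstimulated ones, 3 of them narrowly, at 6.43 to 8.10 CPM, and 3 of them many-fold. Nfkbid, which encodes IκBNS, had 13.2, 11 and 10.3 CPM at 0 h, 21.3, 22.1 and 11.7 CPM at 1 h, then 9.61, 10.6 and 24.7 CPM at 2 h. Bcl3, whose protein pairs with p50 and p52 dimers, had 12.0, 10.8 and 12.4 CPM at 0 h, 20.2, 20.2 and 11 CPM at 1 h, then 11.3, 13.9 and 18.8 CPM at 2 h. Both genes had their 3 highest values in the same 3 libraries as Nfkbia, and both ImP groups overlapped with 0 h. Bcl3 overlaps predicted genes on the opposite strand.

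The ubiquitin-editing regulators cut or block the polyubiquitin chains on which IKK is activated. Tnfaip3 encodes A20, the enzyme that shuts off IKK signalling after tumour necrosis factor or Toll-like receptor engagement. Its level was 63.3, 59.4 and 64.1 CPM at 0 h, 233, 232 and 79.8 CPM at 1 h, then 70.6, 77.3 and 263 CPM at 2 h. Here too all 6 ImP libraries exceeded the 3 unstimulated ones. Tnip1 encodes ABIN1, an A20 partner that binds polyubiquitin, and ranged from 52.8 to 67.1 CPM at 0 h, from 63.1 to 74.1 CPM at 1 h and from 62.3 to 77.0 CPM at 2 h. Cyld encodes a deubiquitinase mutated in familial cylindromatosis and stayed between 67.6 and 72.5 CPM in all 9 macrophage libraries. Tnip1 and Cyld overlapped between all 3 times, and both loci overlap predicted genes on the opposite strand.

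**Figure D1:**
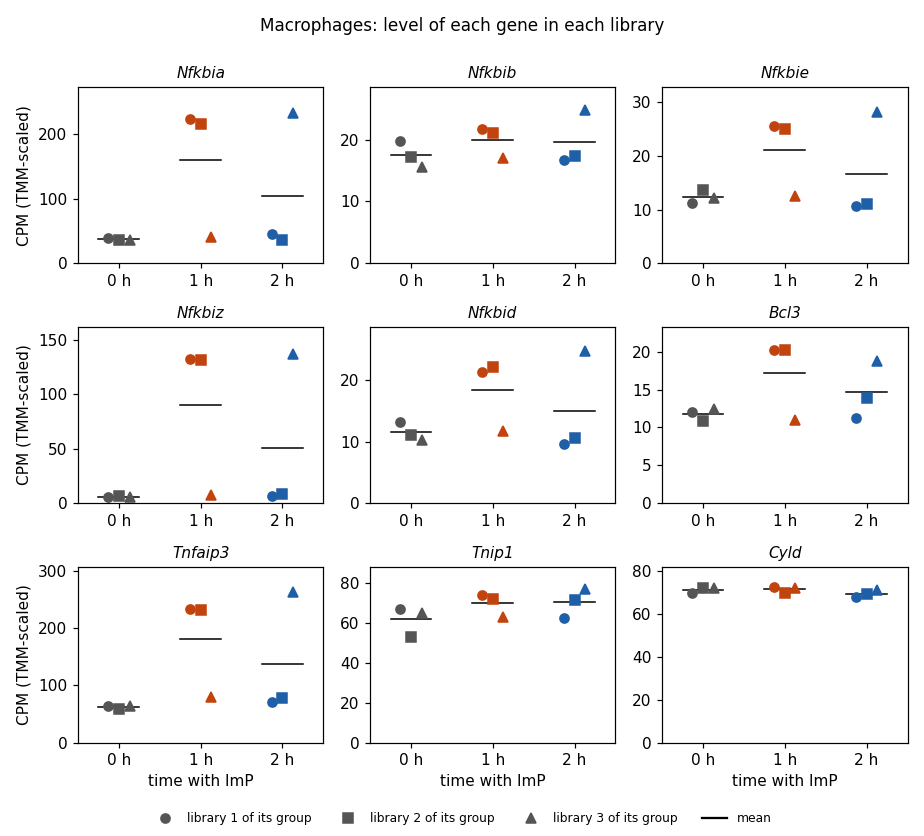
Level (CPM, TMM-scaled, linear axes from 0) of the 9 genes in each macrophage library by time with ImP; symbols mark the library number within its group and bars the group mean. For Nfkbia, Nfkbie, Nfkbiz, Nfkbid, Bcl3 and Tnfaip3 the first and second libraries labelled 1 h and the third library labelled 2 h stand above the other 6, while Cyld is level.

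With libraries as labelled, none of the 9 genes passed edgeR's quasi-likelihood test at an adjusted p of 0.05 at 1 h, against 0.0226% of the 13251 genes tested called higher. Unadjusted edgeR p was under 0.05 for none of the 9 and for 693 of all genes tested, and neither DESeq2 nor limma-voom called any of the 9. The estimates were wide: the log2 fold change was 2.09 for Nfkbia (standard error 0.914, edgeR adjusted p = 0.932), 3.95 for Nfkbiz (1.56, edgeR adjusted p = 0.922) and 1.54 for Tnfaip3 (0.644, edgeR adjusted p = 0.922). All 3 libraries labelled 1 h lay above all 3 unstimulated ones for 3 of the 9 genes, Nfkbia, Nfkbiz and Tnfaip3, against 4.78% of all genes tested. At 2 h as labelled, again none was called by edgeR (0.0302% of all genes were called higher), by DESeq2 or by limma-voom. None had an unadjusted edgeR p under 0.05, against 815 of all genes tested. Nfkbiz and Tnfaip3 were the 2 genes without overlap at 2 h, against 5.24% of all genes. Their log2 fold changes at 2 h were 3.12 (standard error 1.57, edgeR adjusted p = 0.82) and 1.14 (0.646, edgeR adjusted p = 0.835). The 1 h and 2 h comparisons share the unstimulated libraries. Between 2 h and 1 h no gene of the 9 was called in either direction by any of the 3 tools, and edgeR called 0% of all genes lower. Again none of the 9 had an unadjusted edgeR p under 0.05, against 218 of all genes tested.

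Without the third library of each ImP group, 6 of the 9 genes rose at 1 h, against 0.824% of the 13465 genes then tested called higher. Those libraries were left out for their values in genes like these. The calls and small standard errors below follow in part from that choice and are descriptions. Nfkbiz rose 22.6-fold (log2 fold change 4.50, standard error 0.098, edgeR adjusted p = 1.32e-11). Nfkbia rose 5.82-fold (2.54, standard error 0.0845, edgeR adjusted p = 5.26e-10). Tnfaip3 rose 3.73-fold (1.90, standard error 0.0669, edgeR adjusted p = 7.21e-10). The changes of the other 3 were smaller. Nfkbie had a log2 fold change of 1.03 (edgeR adjusted p = 0.000131), Nfkbid of 0.91 (edgeR adjusted p = 0.00117) and Bcl3 of 0.78 (edgeR adjusted p = 0.00406). Nfkbib, at 0.28 (edgeR adjusted p = 0.56), and Tnip1, at 0.24 (edgeR adjusted p = 0.613), did not pass. Cyld differed by less than 0.01 on the log2 scale. By role, all 3 nuclear IκB genes passed, as did Nfkbia and Nfkbie of the 3 classical IκB genes and Tnfaip3 of the 3 ubiquitin-editing genes.

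By 2 h, in the same 7 libraries, the 6 genes stood near their unstimulated levels. None of the 9 was called at 2 h against 0 h, where edgeR called 0.111% of all genes higher. Tnfaip3 had the smallest unadjusted p, 0.00292, at a log2 fold change of 0.25 (standard error 0.068, edgeR adjusted p = 0.427), followed by Nfkbiz at 0.32 (edgeR adjusted p = 0.544). Against 1 h, the same 6 genes as above fell, where 0.609% of all genes were called lower. Nfkbiz fell by 4.18 on the log2 scale (edgeR adjusted p = 2.23e-10), Nfkbia by 2.42 (edgeR adjusted p = 5.89e-09) and Tnfaip3 by 1.65 (edgeR adjusted p = 2.04e-08). Nfkbie fell by 1.22 (edgeR adjusted p = 0.000101) and Nfkbid by 1.10 (edgeR adjusted p = 0.000908). Bcl3 fell by 0.68 (edgeR adjusted p = 0.0369). These p-values rest on 2 libraries at each ImP time, chosen as described.

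In fibroblasts the differences between times were led by Nfkbia and Tnfaip3, and none of the 9 genes passed edgeR's test. Nfkbia had 114, 133 and 111 CPM at 0 h, 189, 205 and 166 CPM at 1 h, then 142, 147 and 108 CPM at 2 h. Every 1 h library lay above every library of 0 h and of 2 h. Its log2 difference at 1 h was 0.64 (standard error 0.12), 1.56-fold, with an unadjusted p of 0.000178 and an edgeR adjusted p of 0.566. Tnfaip3 had 56.6, 59.9 and 58.0 CPM at 0 h, 104, 87.6 and 77.6 CPM at 1 h, then 78.5, 81.6 and 60.6 CPM at 2 h. Both ImP groups lay above 0 h throughout, while 1 h and 2 h overlapped. Its log2 difference was 0.62 at 1 h (standard error 0.12, unadjusted p = 0.000184, edgeR adjusted p = 0.566) and 0.34 at 2 h (standard error 0.12, unadjusted p = 0.0146, edgeR adjusted p = 1.0).

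EdgeR called none of the 8 genes tested in fibroblasts at 1 h, and 0% of all 14066 genes. DESeq2 called 2 of them, Nfkbia at 0.64 (DESeq2 adjusted p = 0.000964) and Tnfaip3 at 0.62 (DESeq2 adjusted p = 0.00285), against 0.064% of all genes called higher by that tool. Limma-voom called none, and edgeR with runs of library codes as a block called Nfkbia (edgeR adjusted p = 0.013). It was the 1 gene of all 14066 called higher there, which is 0.00711%. Nfkbia and Tnfaip3 were the only ones of the 8 with an unadjusted edgeR p under 0.05, against 826 of all 14066 genes. They were also the 2 whose 1 h libraries all lay above 0 h, against 4.99% of all genes. At 2 h none was called by edgeR (0% of all genes), DESeq2 or limma-voom, and Tnfaip3 was the 1 gene without overlap, against 4.51% of all genes. From 1 h to 2 h Nfkbia differed by -0.49 (standard error 0.12, unadjusted p = 0.00147, edgeR adjusted p = 0.176), where edgeR called 0% of all genes lower. It was the 1 gene of the 8 whose 2 h libraries all lay below those of 1 h, against 9.11% of all genes. DESeq2 called it alone among the 8 (DESeq2 adjusted p = 0.0064), against 0.469% of all genes called lower, and limma-voom called none. The other gene of the 8 with an unadjusted edgeR p under 0.05 was Tnfaip3, at -0.29 (edgeR adjusted p = 0.36). Of all 14066 genes, 1709 had an unadjusted edgeR p under 0.05 in this comparison.

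The remaining fibroblast values overlapped between times. Nfkbiz, the cofactor gene with the largest macrophage change, had 49.5, 52.1 and 46.4 CPM at 0 h, 82.8, 59.6 and 45.0 CPM at 1 h, then 56.9, 55.2 and 39.3 CPM at 2 h. The first library at 1 h was the highest and the third library lay below all 3 unstimulated ones. Its log2 difference at 1 h was 0.34 (standard error 0.21, edgeR adjusted p = 0.855). Nfkbie ranged from 18.1 to 26.7 CPM and Nfkbib from 10.1 to 16.5 CPM over the 9 libraries. Tnip1 ranged from 63.2 to 80.8 CPM, Cyld from 150 to 182 CPM and Bcl3 from 1.69 to 2.42 CPM. Nfkbid was nearly undetected, with 0, 1 and 1 counts at 0 h, 1, 4 and 1 at 1 h, and 1, 0 and 1 at 2 h, and did not pass the filter on low counts.

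Fibroblast libraries also differed in how counts depended on gene length. The rank correlation of each library's deviation with gene length, over 11711 genes, was -0.37 in the second library and -0.43 in the third library at 1 h, 0.028 in the first library, between -0.06 and 0.20 at 0 h and between 0.23 and 0.31 at 2 h. With this trend removed, the 1 h difference was 0.56 for Nfkbia (edgeR adjusted p = 0.988), whose exons span 1.61 kb, and 0.66 for Tnfaip3 (edgeR adjusted p = 0.753), whose exons span 7.226 kb. The 2 h against 1 h difference of Nfkbia was then -0.36 (edgeR adjusted p = 0.624).

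**Figure D2:**
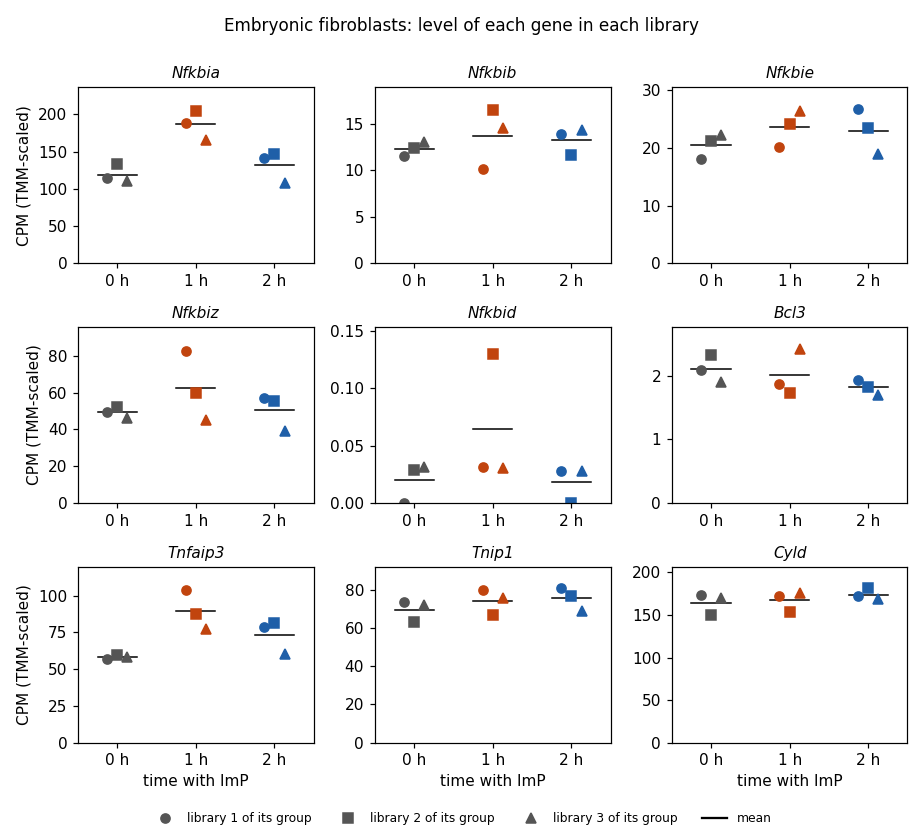
Level (CPM, TMM-scaled, linear axes from 0) of the 9 genes in each fibroblast library by time with ImP; symbols mark the library number within its group and bars the group mean. Every 1 h library is above every 0 h library for Nfkbia and Tnfaip3, and the Nfkbid panel rests on 0 to 4 counts a library.

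In the cells labelled aortic endothelial no gene of the 9 was called at any time by edgeR, DESeq2 or limma-voom, and edgeR called 0% of the 14779 genes tested in each comparison. Of the 9, 2 had an unadjusted edgeR p under 0.05 at 1 h, as did 733 of the 14779 genes. None of the 9 did at 2 h or between 2 h and 1 h, where 1361 and 293 of all genes did. Nfkbia, with 69.1, 75.1 and 74.0 CPM at 0 h, 66.9, 80.0 and 85.6 CPM at 1 h, then 69.0, 71.2 and 73.4 CPM at 2 h, overlapped at every time. Its log2 difference at 1 h was 0.09 (standard error 0.124, edgeR adjusted p = 0.902). Cyld, the deubiquitinase gene, had 42.6, 39.4 and 24.7 CPM at 0 h, 54.6, 50.3 and 57.9 CPM at 1 h, then 47.3, 47.7 and 34.9 CPM at 2 h. It was the 1 gene whose 1 h libraries all lay above 0 h, against 5.36% of all genes, with a log2 difference of 0.61 (standard error 0.198, unadjusted p = 0.00899, edgeR adjusted p = 0.826). The third library at 0 h was the lowest of the 9. Deviations in that library had a rank correlation with gene length of -0.28, against 0.39 in the first library at 1 h, and the Cyld exons span 12.58 kb. With each library's length trend removed the 1 h difference of Cyld was 0.54 (unadjusted p = 0.00854, edgeR adjusted p = 0.865). Between 2 h and 1 h the Cyld libraries did not overlap either (lower at 2 h, against 3.97% of all genes), and those of Nfkbid did not (higher at 2 h, against 4.51% of all genes).

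Tnfaip3 had 18.1, 14.7 and 10.9 CPM at 0 h, 27.6, 17.3 and 22.6 CPM at 1 h, then 26.8, 14.7 and 18 CPM at 2 h in these cells, with a log2 difference at 1 h of 0.63 (standard error 0.266, unadjusted p = 0.0347, edgeR adjusted p = 0.826). The groups overlapped. Bcl3 had 2.60, 3.73 and 1.98 CPM at 0 h, 3.24, 4.38 and 9.55 CPM at 1 h, then 3.94, 1.76 and 8.41 CPM at 2 h. The third libraries of the ImP groups were the 2 high ones, and the log2 difference at 1 h was 1.05 (standard error 0.547, edgeR adjusted p = 0.826). Nfkbiz ranged from 14.2 to 29.1 CPM, Nfkbib from 17.8 to 25.6 CPM and Tnip1 from 19.1 to 27.4 CPM over the 9 libraries. Nfkbie ranged from 1.60 to 6.03 CPM. Nfkbid rested on 5 to 31 counts a library.

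**Figure D3:**
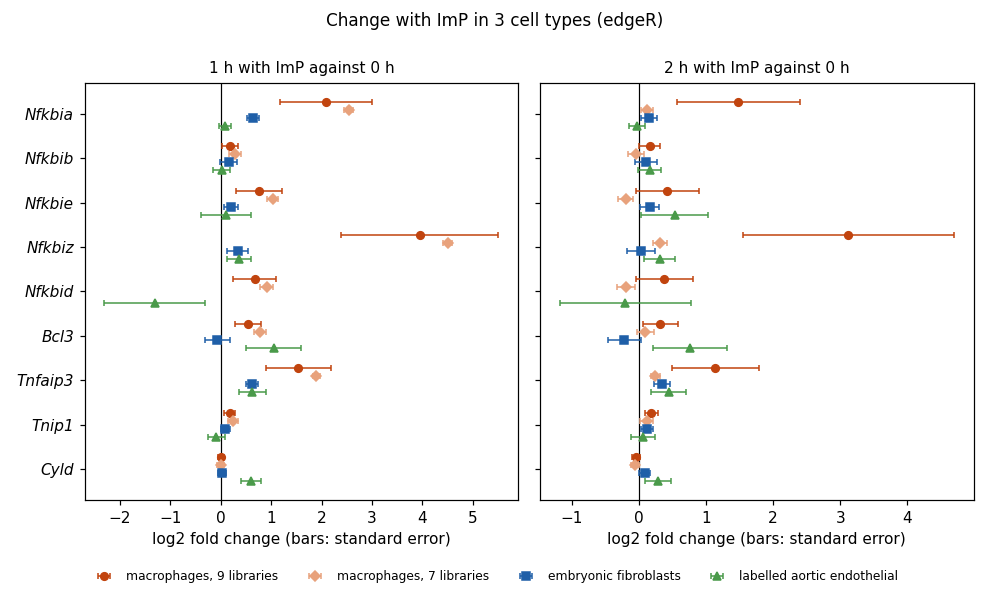
Log2 fold change (horizontal axis) of each gene at 1 h (left) and 2 h (right) against 0 h, with the edgeR standard error as bars, for 9 macrophage libraries as labelled, for the 7 left without the third library of each ImP group, for fibroblasts and for cells labelled aortic endothelial. The 7 macrophage libraries give 4.50 for Nfkbiz and 2.54 for Nfkbia at 1 h, where the fibroblasts give 0.34 and 0.64; Nfkbid was not tested in fibroblasts.

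Whether the change at 1 h differed between macrophages and fibroblasts was tested as an interaction in a model of all 27 libraries. The spread in that model also draws on the cells labelled aortic endothelial. With macrophages and fibroblasts alone in the model, edgeR called none of the 9 at 1 h or 2 h as labelled. As labelled, edgeR, DESeq2 and limma-voom called none of the 9 genes, and edgeR called 0.00587% of the 17038 genes tested higher in macrophages. Of the 9, 1 gene, Nfkbiz, had an unadjusted edgeR p under 0.05, as did 616 of the 17038 genes. The difference in log2 change was 3.60 for Nfkbiz (standard error 1.22, unadjusted p = 0.00921, edgeR adjusted p = 1.0), 1.44 for Nfkbia (0.726, edgeR adjusted p = 1.0) and 0.91 for Tnfaip3 (0.564, edgeR adjusted p = 1.0). Without the third macrophage library of each ImP group, Nfkbiz (4.15, standard error 0.299, edgeR adjusted p = 1.06e-08) and Nfkbia (1.89, standard error 0.171, edgeR adjusted p = 3.36e-07) passed, against 0.148% of 17582 genes called higher. Tnfaip3, at 1.27 (standard error 0.306, edgeR adjusted p = 0.172), did not. At 2 h none of the 9 was called by any of the 3 tools as labelled, where edgeR called 0.0117% of all genes higher. Nfkbiz alone of the 9 had an unadjusted edgeR p under 0.05, against 372 of the 17038 genes. The Nfkbiz difference at 2 h was 3.06 as labelled (standard error 1.22, edgeR adjusted p = 1.0) and 0.25 without the 2 libraries (standard error 0.308, edgeR adjusted p = 1.0), where none of the 9 was called and 0.0114% of all genes were called higher.

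Unstimulated cells differed in which inhibitors they carried. Levels are given here per kb of exon, with TMM scaling over all 27 libraries, so that genes can be compared. Nfkbia was the most abundant of the 9 in each cell type, at 27.1 CPM per kb ± 1.48 (SD, n = 3) in macrophages, 65.4 ± 6.41 in fibroblasts and 43.9 ± 1.5 in the cells labelled aortic endothelial, above the next gene beyond the range of the libraries. In macrophages Tnip1 followed at 20.2 ± 2.49, then Tnfaip3 (10.0 ± 0.372) and Nfkbib (9.39 ± 1.15), whose ranges overlapped. Cyld (6.58 ± 0.117), Nfkbid (5.70 ± 0.737), Bcl3 (5.52 ± 0.381) and Nfkbie (4.74 ± 0.472) came next, each overlapping with its neighbour in that order. Nfkbiz was last at 1.35 ± 0.0655, so the gene with the largest macrophage change started from the lowest level.

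The order was different in fibroblasts. Tnip1 (17.3 ± 1.43 CPM per kb), Cyld (11.5 ± 0.924), Nfkbiz (8.68 ± 0.452) and Tnfaip3 (7.11 ± 0.195) followed Nfkbia, each apart from the next. Nfkbie (5.96 ± 0.653) and Nfkbib (5.02 ± 0.336) overlapped, and Bcl3 had 0.752 ± 0.0731. Nfkbid was last, at 0.00764 ± 0.00664, with 1 of the 3 libraries at 0. In the cells labelled aortic endothelial, Nfkbib (9.38 ± 1.17) and Tnip1 (6.75 ± 1.09) followed Nfkbia. From Nfkbiz (3.51 ± 0.597) through Cyld (2.75 ± 0.747), Tnfaip3 (1.96 ± 0.524) and Nfkbie (1.11 ± 0.619) to Bcl3 (1.08 ± 0.292) each gene overlapped with the next. Nfkbid was last at 0.293 ± 0.156.

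**Figure D4:**
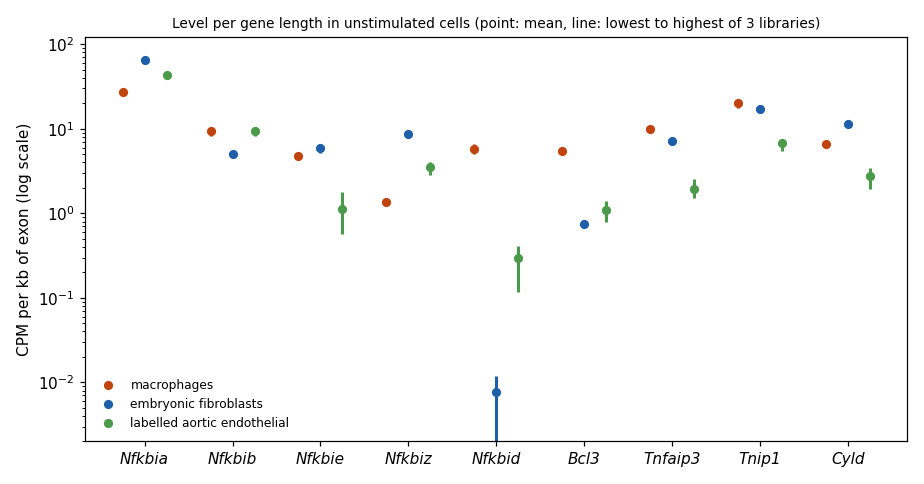
Level per kb of exon (CPM per kb, log axis) of the 9 genes in unstimulated cells of each type; points are means and lines run from the lowest to the highest of 3 libraries. Nfkbid spans from 5.70 in macrophages to 0.00764 in fibroblasts, where the line runs to the foot of the axis because 1 library had no count, and Nfkbiz is lowest in macrophages.

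Between unstimulated macrophages and fibroblasts the widest gap was that of Nfkbid, with 1111 counts over 3 macrophage libraries against 2 over 3 fibroblast libraries. Per total count the ratio was 573, with an exact 95% interval of 158 to 4740 that covers counting error only. Nfkbid passed the low-count filter through its macrophage libraries. Of the other 8 genes, 5 passed edgeR's test in the 27-library model, where 68.3% of all 17038 genes passed in either direction, so a call is the usual outcome here. Bcl3 was higher in macrophages by 2.87 (standard error 0.391, edgeR adjusted p = 7.71e-07), and Nfkbib by 0.90 (0.177, edgeR adjusted p = 7.35e-05). Cyld was lower in macrophages, at -0.81 (standard error 0.141, edgeR adjusted p = 1.59e-05). Without the 2 macrophage libraries that stood apart these 3 passed at the same differences (edgeR adjusted p = 8.68e-07 for Bcl3, 3.45e-05 for Nfkbib and 4.24e-05 for Cyld).

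Nfkbiz was lower in unstimulated macrophages than in fibroblasts, at -2.69 (standard error 0.885, edgeR adjusted p = 0.0146), and did not pass with limma-voom (limma-voom adjusted p = 0.11). Nfkbia was lower too, at -1.27 (standard error 0.516, edgeR adjusted p = 0.0374), but this call ended with limma-voom (adjusted p = 0.0704), without the low-count filter (edgeR adjusted p = 0.0626), with runs of library codes as a block (edgeR adjusted p = 0.0927) and without any 1 of the 6 unstimulated libraries (edgeR adjusted p from 0.0564 to 0.0889). The spread in that model includes the 2 macrophage libraries that stood apart and the libraries of the cells labelled aortic endothelial. Its biological coefficient of variation was 0.214, against 0.126 in macrophages and in fibroblasts fitted apart. Without the 2 macrophage libraries the edgeR adjusted p was 8.03e-10 for Nfkbia and 6.15e-11 for Nfkbiz at the same differences. There 65.9% of all genes passed. Tnfaip3, at 0.49 (edgeR adjusted p = 0.282), passed without those libraries (edgeR adjusted p = 0.0382) and with the compared groups fitted alone (edgeR adjusted p = 8.73e-05). Nfkbie, at -0.33 (edgeR adjusted p = 0.473), passed only with the groups fitted alone (edgeR adjusted p = 0.0287). Tnip1, at 0.22 (edgeR adjusted p = 0.154), did not pass in any setting and had the opposite sign with library totals alone. Scaling by library totals alone moved the median over all genes by -0.415 in this comparison and by -0.126 in the next, on the log2 scale.

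Between unstimulated cells labelled aortic endothelial and fibroblasts, Nfkbid had 58 counts against 2, a ratio per total count of 28.9 (exact 95% interval 7.64 to 244, counting error only). Of the other 8 genes 5 passed edgeR's test, where 72.1% of all genes passed in either direction. The 4 lower ones were Nfkbie at -2.38 (standard error 0.416, edgeR adjusted p = 2.22e-05), Cyld at -2.07 (0.143, edgeR adjusted p = 2e-12), Tnfaip3 at -1.85 (0.411, edgeR adjusted p = 0.000465) and Tnip1 at -1.36 (0.139, edgeR adjusted p = 2.83e-09). Nfkbib was higher by 0.90 (standard error 0.177, edgeR adjusted p = 6.69e-05). Nfkbia (-0.58, edgeR adjusted p = 0.324), Nfkbiz (-1.31, edgeR adjusted p = 0.18) and Bcl3 (0.51, edgeR adjusted p = 0.257) did not pass, and Nfkbia and Nfkbiz passed with the groups fitted alone (edgeR adjusted p = 0.00197 and 0.000194). These values moved with gene length. With each library's length trend removed, the Nfkbib call ended (0.11, edgeR adjusted p = 0.568), Nfkbia passed at -1.74 (edgeR adjusted p = 0.00626), Tnfaip3 and Cyld shrank to -1.08 and -0.92 while still passing (edgeR adjusted p = 0.0209 and 1.21e-07), and Bcl3 took the opposite sign.

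The rest of the pathway is described by counts and medians, with no test of the lists. Among the 7 macrophage libraries at 1 h, where 0.824% of all genes were called higher, 3 of 5 NF-κB subunit genes rose, with a median log2 change of 0.44 against 0 over all genes: Relb (0.53, edgeR adjusted p = 0.01), Rel (0.44, edgeR adjusted p = 0.0125) and Nfkb2 (0.49, edgeR adjusted p = 0.0493). Of 23 genes of the IKK complex, upstream kinases and adaptors, 2 rose and the median was 0.05. They were Map3k8, the Tpl2 kinase that p105 holds inactive (0.47, edgeR adjusted p = 0.0374), and Map3k14, the NIK kinase of the noncanonical pathway (0.40, edgeR adjusted p = 0.0492). Of 19 other negative regulators only Zc3h12a, which encodes the RNase Regnase-1, rose (1.03, edgeR adjusted p = 0.000162), and the median was 0.01. Next to it Birc3 had 0.38 (edgeR adjusted p = 0.0508) and Tnip3, an A20 partner like Tnip1, had 0.45 (edgeR adjusted p = 0.0709).

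NF-κB target cytokines, chemokines and adhesion genes had the median closest to that of the feedback genes, 1.25 against 0.91. Of the 22 tested 12 rose, against 0.824% of all genes called higher. The list holds 27 genes, and the rest did not pass the low-count filter. Csf2 had 0 CPM in each unstimulated library and 0.53 and 0.482 CPM in the first and second libraries at 1 h. It passed that filter through the high libraries. Cxcl1 had 0.159, 0.402 and 0.298 CPM at 0 h, then 13.4 and 14.5 CPM in the same libraries at 1 h. Bcl2a1a had 0.285, 0.172 and 0.0992 CPM at 0 h, then 0.811 and 0.681 CPM. Genes this low in unstimulated cells can raise the count and the median. Tnf rose by 3.92 (edgeR adjusted p = 2.29e-11), Tnfsf9 by 4.83 (edgeR adjusted p = 4.59e-11) and Il1b by 6.29 (edgeR adjusted p = 1.28e-09). Tnf had 15.2, 14 and 15.2 CPM at 0 h, 227, 220 and 18.3 CPM at 1 h, then 14.3, 18.5 and 266 CPM at 2 h, so the same 3 libraries were high as for Nfkbia. At 2 h none of these genes on any of the 4 lists was called, and between 2 h and 1 h the same count of target genes, 12, fell, with a median of -1.03 beside -1.10 for the 9 feedback genes and 0 over all genes, where 0.609% of all genes were called lower. From 1 h to 2 h Map3k8 also fell, by 0.81 (edgeR adjusted p = 0.00147), as the 1 of 23 kinase and adaptor genes. Of the 19 other negative regulators 2 fell, Zc3h12a by 1.08 (edgeR adjusted p = 0.000452) and Tnip3 by 0.76 (edgeR adjusted p = 0.00423), and no subunit gene was called. As labelled, with all 9 libraries, no gene of the 4 lists was called at either time. The 1 h medians were then 0.29 for subunits, 0.06 for kinases and adaptors, 0.02 for other negative regulators and 0.93 for targets, beside 0.68 for the 9 feedback genes and 0 over all genes.

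In fibroblasts no gene of the 4 lists was called by edgeR. Of 19 target genes tested at 1 h, 17 had a positive difference, with a median of 0.52, beside 7 of 8 feedback genes with a median of 0.18 and 51.3% positive over all genes. The smallest p among targets were those of Irf1 (0.46, edgeR adjusted p = 0.566), Csf2 (1.07, edgeR adjusted p = 0.846) and Lif (0.53, edgeR adjusted p = 0.846). The transcription factor gene Irf1 had 51.0, 42.4 and 47.5 CPM at 0 h, 69.2, 62.5 and 62.4 CPM at 1 h, then 47.8, 47.9 and 41.9 CPM at 2 h, a pattern with no overlap between 1 h and the other times, as for Nfkbia. At 2 h the 5 subunit genes all had positive differences, with a median of 0.17, beside 48.3% positive and a median of -0.01 over all genes. They were led by Nfkb2 (0.21, edgeR adjusted p = 1.0) and Relb (0.32, edgeR adjusted p = 1.0). In the cells labelled aortic endothelial no gene of the lists was called, and the 9 feedback genes had a median of 0.10 at 1 h and 0.28 at 2 h, beside 0 and 0.01 over all genes.

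Across the 9 macrophage libraries the feedback genes followed one another, which 3 libraries largely set. Pearson's r of log2 CPM with Nfkbia was 0.994 for Nfkbiz, 0.989 for Tnfaip3, 0.971 for Nfkbie, 0.963 for Nfkbid, 0.943 for Bcl3 and 0.876 for Nfkbib, but 0.702 for Tnip1 and 0.153 for Cyld. Over the 7 libraries, where both remaining 1 h libraries are the high ones, r was 0.992 for Nfkbiz, 0.99 for Tnfaip3, 0.961 for Nfkbie, 0.952 for Nfkbid, 0.941 for Bcl3, 0.829 for Nfkbib, 0.599 for Tnip1 and 0.212 for Cyld. Over all 9 libraries the genes most like Nfkbia among the 11824 compared were Csf2 (r = 0.997, at most 0.53 CPM in any macrophage library), Cd83, Acod1 and Ccrl2 (each 0.995) and Egr1 (0.994). Over the 7 libraries they were Cd83 (0.998), Csf2 and Ifrd1 (each 0.997), Clec4e (0.996) and Dusp5 (0.995). The lists for the other genes are over all 9 libraries. Nfkbiz was most like Tnf (0.999), Tnfsf9 and Zfp36, and Tnfaip3 most like Tnfsf9 (0.998), Ehd1 and Tnf. Nfkbie was nearest to Irf1, Icam1 and Pde4b, Nfkbid to Zfp263, Sdc4 and Ccnl1, and Bcl3 to Pim3, Cdc42ep4 and Csrnp1. Nfkbib was nearest to Ccnt2, Xpa and Vamp2, Tnip1 to Gtf2ird2, Mafk and Hexim2, and Cyld to Ggct (0.928), Dhx33 and Adamts13.

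Across the 9 fibroblast libraries r with Nfkbia was 0.897 for Tnfaip3, 0.705 for Nfkbiz and 0.496 for Nfkbie, and it lay between -0.175 and 0.191 for Nfkbib, Bcl3, Tnip1 and Cyld. The genes most like Nfkbia there were Vmac (0.952), Ccn1 (0.951), Rnd1 (0.943), Pdia5 (0.933) and Manf (0.93). In the cells labelled aortic endothelial r with Nfkbia was -0.775 for Nfkbie, 0.693 for Nfkbiz, 0.573 for Bcl3, -0.497 for Tnip1, -0.365 for Nfkbid and -0.194 for Tnfaip3, and it was -0.0993 for Nfkbib and 0.134 for Cyld. There the most similar genes were Slc12a9 (0.95), Gabbr1, Kcmf1, Ydjc and Apoa2. These correlations rest on 7 or 9 libraries that share their depth and length trends, and all are descriptions.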

How the data were processed

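The authors used STAR and RSEM, with cutadapt and FastQC, on GRCm38.p6, and R 4.3.2 with DESeq2, per the submitters' processing notes. Settings, annotation and strand of counting are not given in the sources used here. What the authors deposited are estimated counts by gene symbol, taken as RSEM expected counts. All 680184 were already whole, so rounding changed none, and the group tables equal the full table. No 2 libraries of a group agreed within sampling noise (lowest chi-square per degree of freedom 5.69 over 27 pairs).

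The 9 genes and all gene lists were chosen with earlier results of these data known. Each cell type was fitted with edgeR 4.0.16 in R 4.3.3 (filterByExpr at a minimum count of 10, TMM, robust quasi-likelihood F-test, two-sided, Benjamini-Hochberg over all genes tested, threshold 0.05). Cell types were compared in 1 model of 27 libraries. The biological coefficient of variation was 0.126 in macrophages and in fibroblasts, 0.326 in the cells labelled aortic endothelial and 0.214 in the model of 27 libraries. Standard errors come from the fit's weights. Exon lengths and gene positions came from GENCODE M21 (97.1% of symbols matched), and promoters from RefSeq. Named from the other lists are up to 3 genes with the smallest p in a comparison, and from pattern likeness the 5 genes nearest to Nfkbia and the 3 nearest to each other gene. Fibroblast Irf1 and macrophage Tnf were given by library after their values were seen.

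The alternatives were DESeq2 1.42.0, limma-voom 3.58.1, other scalings and filters, a fit of only the groups compared, a block for runs of library codes, and leaving out each library. Chosen after seeing the data were the fits without the third macrophage library of each ImP group and with each library's length trend removed. Tests were checked on simulated counts for 1 h against 0 h. Of genes changed 1.5-fold, edgeR found 59% in macrophages, 66% in fibroblasts and 16% in the cells labelled aortic endothelial. Of genes changed 2-fold it found 83%, 90% and 49%, in the same order. Many changes of these sizes would thus go uncalled, most of all in the cells labelled aortic endothelial.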

Additional observations from a re-analysis of the deposited data

How the results depend on the processing

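The tally over all alternatives covers genes picked for each comparison, mainly those whose fold change is given above. Of these recomputed values 1375 kept their direction and their side of the threshold, 24 passed it newly, 11 no longer passed and 12 changed sign. Between times no gene was called in the main fit, so keeping its side there means staying uncalled. Other signs varied outside the tally, such as Nfkbie at 1 h in the cells labelled aortic endothelial (-0.404 to 0.589). Without the third macrophage library of each ImP group, the count of the 9 genes called went from 0 to 6 at 1 h, from 0 to 6 between 2 h and 1 h, and from 0 to 2 for the difference of the 1 h change between macrophages and fibroblasts. DESeq2 called 2 of the genes in fibroblasts at 1 h and 1 between 2 h and 1 h, where edgeR called 0.

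Library codes came in runs, taken as replicate numbers. Deviations of same-numbered libraries correlated between -0.213 and 0.186, not above 0.1 throughout, so the numbers were not taken to pair the samples. In 29 of 54 library and time pairs the own number correlated best, against 18 if numbers carried no information, which is a hint of pairing in the data. With runs as a replicate block, 1 gene, Nfkbia in fibroblasts at 1 h, was called (0.64, edgeR adjusted p = 0.013). The unstimulated Nfkbia difference between macrophages and fibroblasts was no longer called, and no other call on the 9 genes changed with the block.

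Signs changed without the 2 macrophage libraries for differences at 2 h that were not called: Nfkbib went to -0.0428, Nfkbie to -0.197 and Nfkbid to -0.189, and the differences between macrophages and fibroblasts to -0.0657 for Nfkbia and -0.128 for Tnfaip3. Leaving out each library in turn gave ranges of -0.0429 to 0.265 for Nfkbib, -0.197 to 0.662 for Nfkbie, -0.189 to 0.621 for Nfkbid, and, for the differences between cell types, -0.0659 to 1.70 for Nfkbia and -0.128 to 1.08 for Tnfaip3, all lowest without the third library labelled 2 h. In unstimulated cells Bcl3 went to -0.0875 between the cells labelled aortic endothelial and fibroblasts with the length trend removed, and Tnip1 to -0.193 between macrophages and fibroblasts with library totals alone. Apart from the construction of these alternatives, the causes were not tested. Nfkbid in fibroblasts, at 0 to 4 counts a library, was too shallow to compare between times.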
